A study of Mus musculus with 5 samples.

Results

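The 34 genes described here encode the components of basement membranes, from the type IV collagens, laminins and nidogens that build the sheet to the proteoglycans, anchoring proteins and receptors attached to it. They were taken by symbol, and all 34 were found among the 56941 identifiers of the count table. All 34 passed the filter on low values (at least 10 counts in at least 1 pool), which kept 19713 genes, and the lowest count of a member in any pool was 94, for Lama1. RNA came from the iridocorneal angle, the ring of tissue between iris and cornea through which aqueous humor drains, of untreated male and female mice aged 12 months. DBA/2J mice, the pigmentary glaucoma model, carry a premature stop allele of Gpnmb together with the Tyrp1 b allele. DBA/2J-Gpnmb+/SjJ mice, here Gpnmb+, have the wild-type Gpnmb allele restored and keep Tyrp1 b, so that both strains share the Tyrp1 b defect. There were 3 DBA/2J pools and 2 Gpnmb+ pools, each of tissue from several mice. The study describes pools of equal size in both strains, whereas the library names list different numbers. They give 3 animals for every DBA/2J pool and 2 for every Gpnmb+ pool. Iris and ciliary body were dissected away, but the limbal ring that was kept can hold remnants of both. Counts on genes summed to between 43900661 and 49837758 per pool.

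Several facts of the libraries stand beside every result. Gpnmb RNA, which checks the genotype labels, was at 45.9, 52.02 and 43.6 CPM (counts scaled to the TMM-adjusted library total) in DBA/2J and at 2555 and 2260 CPM in Gpnmb+. Xist, the RNA of the inactive X chromosome, was counted 596, 0 and 2417 times in the DBA/2J libraries and 7843 and 9152 times in the Gpnmb+ libraries, while Y-linked Ddx3y had 3608, 4168 and 1567 counts against 0 and 4. The Gpnmb+ pools thus held almost no Y-linked RNA although both sexes are listed for that strain, and genotype and sex composition cannot be told apart. All 11 markers of nonpigmented ciliary epithelium had every DBA/2J pool above both Gpnmb+ pools, against 17.3% of all genes tested. They summed to 1158, 1313 and 1477 CPM against 466 and 284 CPM. Optc was at 524, 602 and 684 CPM against 172 and 78.2 CPM, and Six3 at 65.7, 64.8 and 82.85 CPM against 44.55 and 42.0 CPM. Over the pools of both genotypes, the first 2 trabecular meshwork markers, Chil1 and Mgp, ran from 1183 to 4087 CPM and from 559 to 764 CPM. Of the 7 markers of that list, 2 were higher in all DBA/2J pools and 4 lower, against 17.3 and 17.2% of all genes tested. By the rule given below, edgeR called 2 of the 7, both lower, against 0.294% of all genes called lower. Lens RNA was uneven. Cryab was at 183, 225 and 221 CPM against 163 and 224 CPM, and Bfsp2 at 11.85, 14.86 and 15.84 CPM against 14.52 and 10.75 CPM. Cryaa was at most at 2.35 CPM, Mip at no more than 4 counts and Lim2 at 0 in all pools.

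A basement membrane is a thin sheet of extracellular matrix under epithelia and endothelia and around muscle, fat and Schwann cells. Laminin heterotrimers bind cell surface receptors and polymerise, type IV collagen heterotrimers form a separate, covalently crosslinked network, and nidogens and the heparan sulfate proteoglycans perlecan and agrin tie the networks together. In the outflow pathway, basement membrane lies beneath trabecular meshwork cells and the inner wall of Schlemm's canal, and the ciliary epithelium, the limbal and corneal epithelium, vessels, nerves and muscle of this ring each have their own.

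Positive log2 fold changes below are higher in DBA/2J, and a gene was called when edgeR's quasi-likelihood test gave a Benjamini-Hochberg adjusted p of at most 0.05 over all 19713 genes and the fold was at least 1.5. By this rule 2 of the 34 members were called, Smoc1 and Npnt, both lower in DBA/2J, against 0.796% of all genes tested and 0.294% called lower. With DESeq2's Wald test in place of edgeR, 12 members were called (7 higher and 5 lower) against 4.70% of all genes. At an unadjusted p of at most 0.05 and the same fold, 14 members passed in edgeR (8 higher and 6 lower) against 8.67% of all genes. The pools of the genotypes did not overlap for 24 members, against 34.5% of all genes, with 16 members higher in all DBA/2J pools (background 17.3%) and 8 lower (background 17.2%). The median log2 fold change of the members was 0.20 and that of all genes -0.02. For a single value, the smallest p that an exact two-sided permutation of 3 and 2 pools can give is 0.2, so p-values come from the fit across all genes, and they measure the spread between pools. In bulk tissue, fewer cells of a type and less RNA per cell cannot be told apart.

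**Figure D1:**
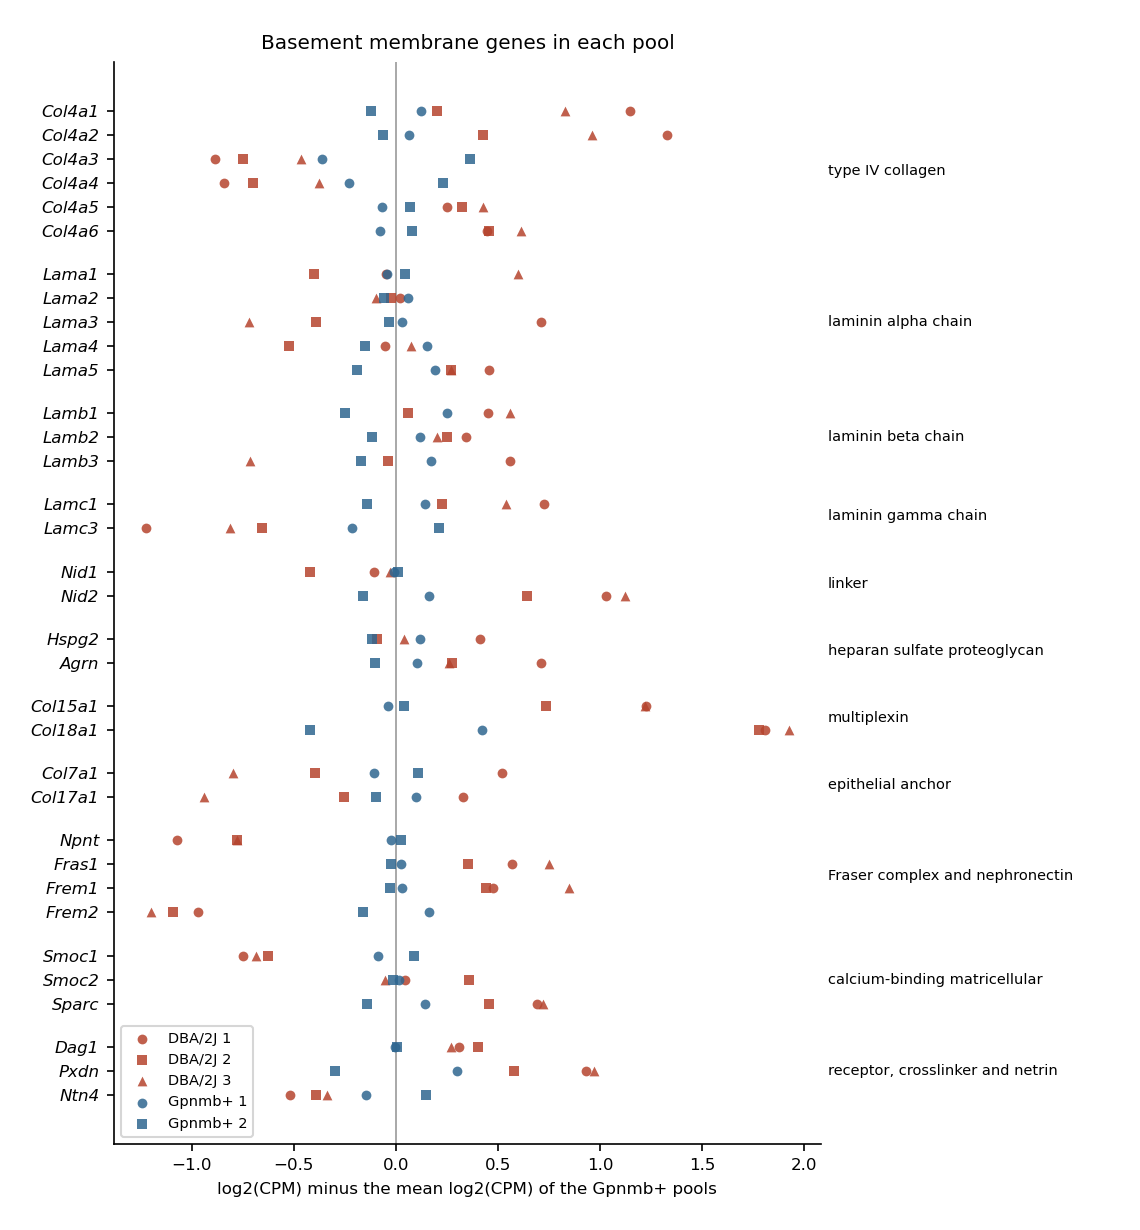
Each row is a basement membrane gene, grouped by role, and each point is a pool (red DBA/2J, blue Gpnmb+). The x axis is the pool's log2(CPM) minus the mean log2(CPM) of the Gpnmb+ pools. Points of the genotypes lie apart for 24 of the 34 genes, farthest for Col18a1 on the right and for Frem2 and Npnt on the left, whereas Lama3, Lamb3, Col7a1 and Col17a1 spread widely among the DBA/2J pools.

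Per kilobase of annotated exon, the scale on which levels of different genes can be compared, Sparc was the most abundant member, at a mean of 470 CPM per kilobase in DBA/2J and 305 in Gpnmb+. Col18a1 came next in DBA/2J at 142 CPM per kilobase, and in Gpnmb+ it stood at 41.5, beside Col17a1 at 44.6 and Dag1 at 41.9. Lama1, Frem2, Lamc3 and Col7a1 were the lowest, all under 1 CPM per kilobase in both genotypes.

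The type IV collagens form the polymer that gives a basement membrane its tensile strength, and their genes lie in head-to-head pairs. Col4a1 and Col4a2, which encode the chains found in nearly every basement membrane, were higher in all DBA/2J pools. Col4a1 was at 403, 209.5 and 323.5 CPM in DBA/2J (pools 1 to 3 in order) and at 198.5 and 167 CPM in the Gpnmb+ pools. Its log2 fold change was 0.77 (SE 0.27, edgeR adjusted p = 0.259). For Col4a2 the levels were 288, 154 and 223 CPM and 119.6 and 109 CPM, with a log2 fold change of 0.95 (SE 0.26, edgeR adjusted p = 0.161). DBA/2J pool 1 was the highest and pool 2 the lowest of that genotype for both genes, with pool 2 close to Gpnmb+ pool 1 for Col4a1. Neither difference passed the test in edgeR, and DESeq2 called Col4a2 (adjusted p = 0.00639).

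Col4a3 and Col4a4, whose chains join Col4a5 in the collagen of the glomerulus, the lens capsule and other specialised basement membranes, were at lower levels in DBA/2J. Col4a3 was at 18.1, 19.9 and 24.1 CPM in DBA/2J and at 25.9 and 42.9 CPM in Gpnmb+, a log2 fold change of -0.73 (SE 0.23, edgeR adjusted p = 0.221). Col4a4 was at 24.85, 27.5 and 34.3 CPM and 37.99 and 52.3 CPM, a log2 fold change of -0.65 (SE 0.19, edgeR adjusted p = 0.185). All DBA/2J pools lay below both Gpnmb+ pools for each, and Gpnmb+ pool 2 stood above Gpnmb+ pool 1. DESeq2 called Col4a4 (adjusted p = 0.0459) and not Col4a3 (adjusted p = 0.0633). Without Gpnmb+ pool 2 the log2 fold changes were -0.32 for Col4a3 and -0.40 for Col4a4. The X-linked pair Col4a5 and Col4a6, which build the chains of epithelial and smooth muscle basement membranes among others, was higher in DBA/2J by less than the fold of 1.5. Col4a5 was at 113, 119 and 128 CPM against 90.7 and 99.5 CPM (log2 fold change 0.33, SE 0.093, edgeR adjusted p = 0.17). Col4a6 was at 103, 103 and 115 CPM against 71.4 and 79.7 CPM (log2 fold change 0.504, SE 0.097, edgeR adjusted p = 0.0867). Both genes lie on the chromosome whose Xist RNA differed between the genotypes.

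The makeup of the family can be given as shares. Of the summed CPM per kilobase of the 6 chains, Col4a1 and Col4a2 together made up 76.4, 62.2 and 68.9% in DBA/2J against 63.8 and 56.1% in Gpnmb+, which overlap. Col4a3 and Col4a4 together held 3.24, 5.53 and 5.02% in DBA/2J and 8.73 and 13.2% in Gpnmb+, which do not. Within each head-to-head pair the ratio of the chains was steadier than either level. Col4a4 stood at 1.20, 1.21 and 1.24 times Col4a3 in DBA/2J and at 1.28 and 1.06 times in Gpnmb+, and Col4a1 at 1.31 to 1.40 times Col4a2 in DBA/2J and at 1.47 and 1.60 times in Gpnmb+. Exons of Col4a1 and Col4a2 overlap on opposite strands in the GRCm39 annotation, as do those of Col4a3 and Col4a4, and the strand setting of the counting is not given in the sources used here, so reads over those overlaps could be assigned to either gene.

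**Figure D2:**
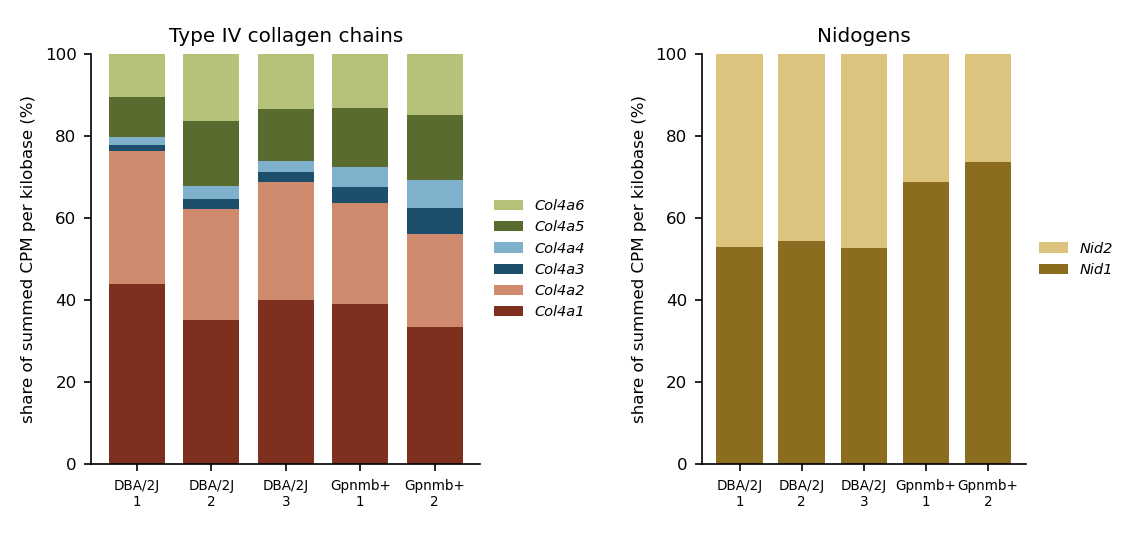
Stacked bars show, for each pool, the share of every chain in the summed CPM per kilobase of the 6 type IV collagen genes (left) and of the nidogens (right), on axes from 0 to 100%. The Col4a3 and Col4a4 layers are thicker in the Gpnmb+ pools, and the Nid2 share is 45.7 to 47.2% in DBA/2J against 31.2 and 26.3% in Gpnmb+.

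Because the pairs shared their direction, the promoter windows of type IV collagen genes are shown (RefSeq, GRCm38.p6 reference genome and not DBA/2J sequence, from 250 bases before to 50 after the annotated start, 5′ to 3′ on the strand of the gene). Windows were at hand for 24 of the 34 members, 30 windows in all, and those of Col4a3, Lama1, Lama3, Lama4, Lamc1, Lamc3, Nid2, Fras1, Smoc1 and Smoc2 were not analysed here. Capitals mark matches, on either strand, to the GC box core GGGCGG and to the CCAAT box, and no matches overlapped in the windows printed. Col4a1 spans chr8:11312777-11313076 on the minus strand, Col4a2 chr8:11312555-11312854 on the plus strand and Col4a4 chr1:82586800-82587099 on the minus strand.
Col4a1: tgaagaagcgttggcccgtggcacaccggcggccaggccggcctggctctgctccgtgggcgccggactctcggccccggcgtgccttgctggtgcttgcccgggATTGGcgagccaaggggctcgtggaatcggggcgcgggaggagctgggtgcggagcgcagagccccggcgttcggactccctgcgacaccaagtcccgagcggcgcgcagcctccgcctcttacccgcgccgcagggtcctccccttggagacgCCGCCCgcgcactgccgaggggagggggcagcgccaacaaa
Col4a2: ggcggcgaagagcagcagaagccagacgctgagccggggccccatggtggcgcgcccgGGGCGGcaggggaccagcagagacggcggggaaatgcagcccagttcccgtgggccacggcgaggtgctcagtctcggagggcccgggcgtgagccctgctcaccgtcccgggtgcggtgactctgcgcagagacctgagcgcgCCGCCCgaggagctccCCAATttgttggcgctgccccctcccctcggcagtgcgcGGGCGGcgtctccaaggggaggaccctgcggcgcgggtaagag
Col4a4: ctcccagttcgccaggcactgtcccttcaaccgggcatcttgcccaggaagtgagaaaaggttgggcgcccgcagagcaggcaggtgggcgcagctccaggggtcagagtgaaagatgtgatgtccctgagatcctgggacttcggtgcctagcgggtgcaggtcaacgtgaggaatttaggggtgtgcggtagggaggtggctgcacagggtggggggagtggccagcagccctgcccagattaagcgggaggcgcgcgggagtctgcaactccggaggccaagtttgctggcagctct
The Col4a1 and Col4a2 windows overlap by 78 bases, read in opposite directions, and the GC box core that ends the Col4a2 window's matches is the one near the end of the Col4a1 window. The GC box core occurred in 18 of the 30 member windows and in 35.7% of all 32851 windows of the same length, and CCAAT in 13 and in 37.4%. A TATA box (TATAAA) was present in 1 member window, that of Col17a1, and in 13.6% of all windows, and the AP-1 site TGANTCA in 0 and in 7.81%. These are counts of letters in 1 window per annotated start and describe neither binding nor activity. The GC content of the member windows had a median of 62.3%, against 52.7% over all windows.

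Laminins are heterotrimers of an alpha, a beta and a gamma chain, and the alpha chain sets which receptor is bound. None of the 10 laminin genes was called by edgeR, against 1 by DESeq2 and 1 at an unadjusted p of 0.05 with the fold (Lamc3 in both). Over all genes tested, DESeq2 called 4.70%, and 8.67% passed the unadjusted p with the fold. The log2 fold changes of the laminin genes had a median of 0.06. Their pools did not overlap for 4 of them, against 34.5% of all genes tested. Among the alpha chains, Lama5, the main alpha chain of adult epithelial and endothelial basement membranes, was at 55.8, 49.1 and 49.01 CPM in DBA/2J and at 46.4 and 35.7 CPM in Gpnmb+ (log2 fold change 0.32, SE 0.14, edgeR adjusted p = 0.33). Lama2, the alpha chain of muscle and Schwann cell basement membranes, varied least, at 49.2, 47.9 and 45.4 CPM against 50.6 and 46.7 CPM, and the 95% interval of its log2 fold change ran from -0.24 to 0.17. Lama4, the vascular and adipose alpha chain, was at 66.9, 48.2 and 73.1 CPM against 77.1 and 62.5 CPM, with DBA/2J pool 2 below both Gpnmb+ pools and the other DBA/2J pools between them. Lama1, the alpha chain of the early embryo, lens capsule and inner limiting membrane, was near the bottom of the range at 2.79, 2.19 and 4.37 CPM against 2.798 and 2.98 CPM. The log2 fold changes of Lama1, Lama2 and Lama4 were 0.11, -0.035 and -0.15, and all of their 95% intervals held 0.

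Lamb1 and Lamb2, the beta chains of most laminins, and Lamc1, the gamma chain that nearly all of them share, had higher means in DBA/2J. Lamc1 was at 200.1, 142 and 176 CPM in DBA/2J and at 134 and 109.8 CPM in Gpnmb+ (log2 fold change 0.51, SE 0.17, edgeR adjusted p = 0.239). Lamb2 was at 183, 171 and 166 CPM against 156 and 133 CPM (log2 fold change 0.26, edgeR adjusted p = 0.298), and Lamb1 at 124, 94.7 and 134 CPM against 108 and 76.45 CPM (log2 fold change 0.35, edgeR adjusted p = 0.456). Of these, Lamc1 and Lamb2 had pools that did not overlap, whereas DBA/2J pool 2 fell below Gpnmb+ pool 1 for Lamb1. Lamc3, the less common gamma chain of nerve and retina, ran in the opposite direction, at 3.08, 4.56 and 4.101 CPM in DBA/2J and 6.21 and 8.34 CPM in Gpnmb+. Its log2 fold change of -0.89 (SE 0.23) was the lowest of the laminins (edgeR adjusted p = 0.151), and DESeq2 called it (adjusted p = 0.0209). Gpnmb+ pool 2 was again the higher of its genotype. Exons of Lama5, Lamb1, Lama4 and Lamb3 overlap those of protein-coding genes on the opposite strand (Adrm1, Dld, Fam229b and G0s2).

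The epithelial members spread widely among the DBA/2J pools and did not separate the genotypes. Lama3 and Lamb3 encode chains of the laminin of hemidesmosomes, Col17a1 the transmembrane collagen of the hemidesmosome, and Col7a1 the anchoring fibril below it. Lama3 was at 93.5, 43.4 and 34.6 CPM in DBA/2J and at 58.3 and 55.8 CPM in Gpnmb+. Lamb3 was at 77.4, 51.1 and 31.9 CPM against 59.05 and 46.7 CPM, Col17a1 at 336, 224 and 139.5 CPM against 286 and 250.3 CPM, and Col7a1 at 7.825, 4.145 and 3.14 CPM against 5.06 and 5.89 CPM. In all 4 genes DBA/2J pool 1 was the highest of the 5 pools and DBA/2J pool 3 the lowest, with both Gpnmb+ pools between them. The highest DBA/2J pool stood at 2.70 times the lowest for Lama3, 2.42 for Lamb3, 2.41 for Col17a1 and 2.49 for Col7a1, against 1.045 to 1.265 times between the Gpnmb+ pools. Their log2 fold changes, 0.0031, 0.017, -0.201 and -0.12, had SEs of 0.41, 0.35, 0.34 and 0.39, and none had an edgeR adjusted p under 0.82. DBA/2J pool 3 was also the lowest for all 9 corneal epithelium markers except Krt14. At the upper end the markers differed from the 4 members, since only Krt14 was highest in DBA/2J pool 1. The markers summed to 11200, 12290 and 7414 CPM in DBA/2J and 13570 and 12070 CPM in Gpnmb+. Krt5, a keratin of basal cells, was at 3722, 3534 and 2095 CPM against 3824 and 3017 CPM. Krt12, the keratin of corneal epithelium, was at 254, 116 and 9.435 CPM in DBA/2J and 1701 and 554 CPM in Gpnmb+. The part of epithelial content in these values was not tested.

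**Figure D3:**
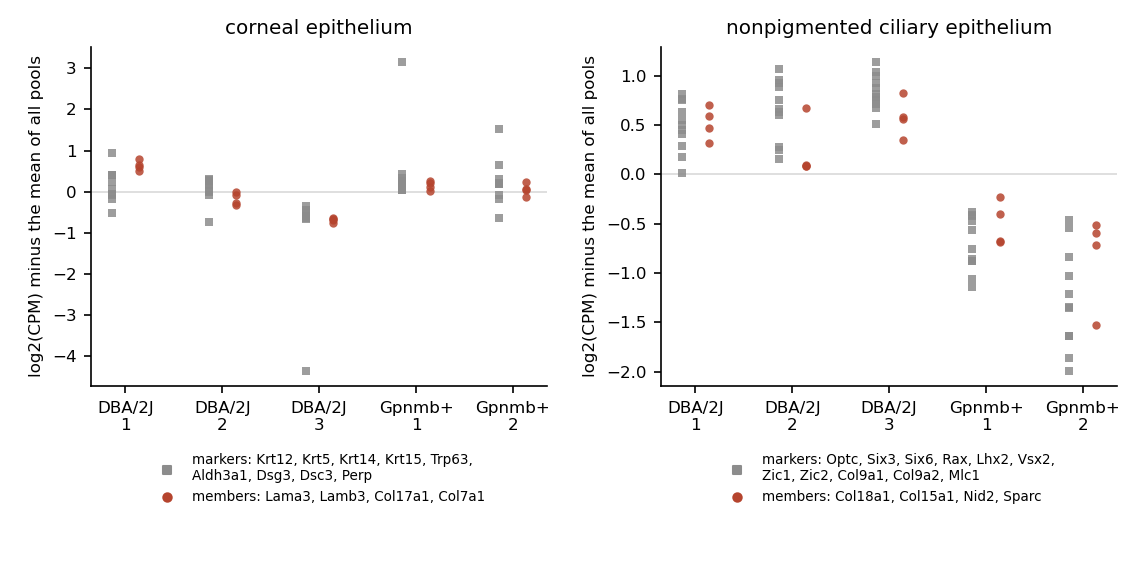
Points give log2(CPM) minus the mean over the 5 pools for markers (gray squares) and members (red circles) in each pool. On the left are corneal epithelium markers beside Lama3, Lamb3, Col17a1 and Col7a1. These members are high in DBA/2J pool 1 and low in DBA/2J pool 3. On the right are nonpigmented ciliary epithelium markers beside Col18a1, Col15a1, Nid2 and Sparc, with every point of the DBA/2J pools above 0 and every point of the Gpnmb+ pools below it. The members on the right were picked because they were higher in DBA/2J, so the direction they share with the markers follows from that choice. Within DBA/2J each of them was lowest in pool 2, for Col18a1 by a small gap (965 against 984 CPM in pool 1), whereas the summed markers were lowest in pool 1.

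Nidogens bind laminin and type IV collagen at once and link the networks. Nid1 was at 149, 119.9 and 157 CPM in DBA/2J and at 159 and 161 CPM in Gpnmb+, with DBA/2J pool 3 just under the Gpnmb+ pools (log2 fold change -0.18, SE 0.13, edgeR adjusted p = 0.558). Nid2, which is more restricted, was at 114, 87.3 and 122 CPM against 62.4 and 49.97 CPM, a log2 fold change of 0.94 (SE 0.18, edgeR adjusted p = 0.0846). The lowest DBA/2J pool was above the highest Gpnmb+ pool, and DESeq2 called Nid2 (adjusted p = 0.000109). Per kilobase, Nid1 stood at 1.13, 1.19 and 1.12 times Nid2 in DBA/2J against 2.21 and 2.80 times in Gpnmb+. The ratio varied little within DBA/2J and did not overlap between genotypes. Exons of Nid2 overlap those of Rtraf on the opposite strand.

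The proteoglycans of the sheet carry heparan sulfate chains that bind growth factors. Perlecan (Hspg2) was at 195.5, 138 and 151 CPM in DBA/2J and 159 and 136 CPM in Gpnmb+, which overlap (log2 fold change 0.13, 95% interval -0.28 to 0.54). Its exons overlap those of Ldlrad2 on the opposite strand. Agrin (Agrn), the organiser of the neuromuscular junction, was at 156, 116 and 114.5 CPM against 103 and 88.9 CPM, with separate pools and no call (log2 fold change 0.43, SE 0.16, edgeR adjusted p = 0.289).

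The multiplexins Col15a1 and Col18a1, collagens that carry glycosaminoglycan chains and release endostatin-like fragments, had the largest positive fold changes of the members. Col18a1 (ENSMUSG00000001435, chr10:76888012-77002390 in GRCm39) was at 984, 965 and 1066 CPM in DBA/2J and at 376 and 209.7 CPM in Gpnmb+, a 3.43-fold difference (log2 fold change 1.78, SE 0.26). Means were 1005 ± 53.6 CPM (SD, n = 3) in DBA/2J and 293 ± 118 CPM (SD, n = 2) in Gpnmb+. The DBA/2J pools lay within 1.104 times of each other, whereas Gpnmb+ pool 1 was at 1.79 times pool 2. In edgeR its adjusted p was 0.0501, just above the threshold, so it was not called. Col18a1 was called with DESeq2's size factors in edgeR, with no count filter, with DESeq2 (adjusted p = 1.88e-10), with limma-voom and with Gpnmb+ pool 1 left out. It was not called with edgeR's filterByExpr (adjusted p = 0.0502), without DBA/2J pool 1, 2 or 3 (edgeR adjusted p = 0.152, 0.134 and 0.146) or without Gpnmb+ pool 2 (edgeR adjusted p = 0.0991). Col15a1 was at 66.3, 47.2 and 66.0 CPM against 27.6 and 29.1 CPM, a 2.11-fold difference (log2 fold change 1.08, SE 0.17, edgeR adjusted p = 0.0571), and DESeq2 called it (adjusted p = 2.46e-06). The lowest DBA/2J pool, pool 2, was still well above both Gpnmb+ pools.

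Gpnmb+ pool 2 was the lowest pool for Col18a1, for Optc and for the summed ciliary epithelium markers, and the DBA/2J pools were the highest for all of them. Within DBA/2J the order differed. Col18a1 was lowest in pool 2 (965 CPM), whereas Optc and the summed markers were lowest in pool 1 (524 and 1158 CPM). Col18a1 was at 984 CPM in pool 1, so its own order within DBA/2J rests on a small gap and carries little weight. How much of the difference in Col18a1 between genotypes came from ciliary epithelium left in the dissected ring was not tested. Exons of Col18a1 overlap those of Slc19a1 on the opposite strand. Col18a1 has annotated starts far apart, and both windows are shown because the counts cannot tell which start was used. They span chr10:77166481-77166780 and chr10:77113656-77113955 (GRCm38.p6, minus strand, capitals as above).
Col18a1 upstream start: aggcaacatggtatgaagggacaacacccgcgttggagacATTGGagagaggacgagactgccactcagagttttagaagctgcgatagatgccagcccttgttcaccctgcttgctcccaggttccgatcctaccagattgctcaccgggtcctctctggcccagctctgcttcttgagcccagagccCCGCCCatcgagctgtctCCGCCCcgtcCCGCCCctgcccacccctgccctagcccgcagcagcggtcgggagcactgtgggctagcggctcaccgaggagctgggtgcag
Col18a1 downstream start: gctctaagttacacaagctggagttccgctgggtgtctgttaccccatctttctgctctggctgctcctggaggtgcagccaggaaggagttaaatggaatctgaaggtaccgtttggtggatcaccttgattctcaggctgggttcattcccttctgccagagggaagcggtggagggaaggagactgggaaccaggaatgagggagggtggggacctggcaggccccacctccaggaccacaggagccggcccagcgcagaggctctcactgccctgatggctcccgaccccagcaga
The upstream window held 3 GC box cores and 1 CCAAT box, all on the opposite strand, and the downstream window held no match.

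Nephronectin (Npnt), a ligand of integrin alpha 8 beta 1 in epithelial basement membranes, was a called member (ENSMUSG00000040998, chr3:132587506-132656257 in GRCm39). It was at 35.03, 42.9 and 42.9 CPM in DBA/2J and at 72.3 and 74.9 CPM in Gpnmb+, 1.83-fold lower in DBA/2J (log2 fold change -0.87, SE 0.11, edgeR adjusted p = 0.0407). Means were 40.3 ± 4.55 CPM (SD, n = 3) in DBA/2J and 73.6 ± 1.89 CPM (SD, n = 2) in Gpnmb+. The Gpnmb+ pools were within 1.04 times of each other, and every DBA/2J pool was well below them. The call was lost with any of the 5 pools left out, while the log2 fold change stayed between -0.92 and -0.78. Its receptor chain gene Itga8, also in the study's lists, was at 11.1, 21.8 and 16.7 CPM in DBA/2J and 35.4 and 32.3 CPM in Gpnmb+ (log2 fold change -1.03, SE 0.26, edgeR adjusted p = 0.147). Npnt also has a downstream annotated start, whose window (chr3:132949765-132950064, GRCm38.p6, minus strand) held no match and is not printed. The counts cannot tell which start was used. The promoter window of the upstream Npnt start is given as that of a called gene (chr3:132950242-132950541, GRCm38.p6, minus strand), and held 4 GC box cores.
Npnt: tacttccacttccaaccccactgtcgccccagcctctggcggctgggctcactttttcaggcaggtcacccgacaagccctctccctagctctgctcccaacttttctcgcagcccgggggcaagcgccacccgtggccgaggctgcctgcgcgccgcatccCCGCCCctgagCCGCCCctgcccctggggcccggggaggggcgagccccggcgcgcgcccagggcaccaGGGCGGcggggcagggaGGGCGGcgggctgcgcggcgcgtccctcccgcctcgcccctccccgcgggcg

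The Fraser complex proteins Fras1, Frem1 and Frem2, large proteins that hold epithelium to the mesenchyme below it, did not share a direction. Frem2 was at 4.95, 4.54 and 4.21 CPM in DBA/2J and at 10.8 and 8.665 CPM in Gpnmb+ (log2 fold change -1.09, SE 0.17, edgeR adjusted p = 0.0532). Fras1 was at 42.5, 36.7 and 48.2 CPM against 29.1 and 28.2 CPM (log2 fold change 0.57, SE 0.13, edgeR adjusted p = 0.121), and Frem1 at 41.3, 40.3 and 53.4 CPM against 30.3 and 29.1 CPM (log2 fold change 0.60, SE 0.14, edgeR adjusted p = 0.134). Pools did not overlap for any of the 3 genes, with Frem2 lower and Fras1 and Frem1 higher in DBA/2J. Frem2 was at far lower levels than the others, and DESeq2 called Frem2 and Frem1. The related gene Frem3, which is no member, was at 1.55, 3.26 and 1.37 CPM against 4.04 and 9.605 CPM (log2 fold change -1.73, SE 0.502, edgeR adjusted p = 0.184).

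Smoc1, a calcium-binding matricellular protein of basement membranes and a modulator of BMP signaling needed for eye development, had the smallest adjusted p of the members (ENSMUSG00000021136, chr12:81073554-81233188 in GRCm39). It was at 70.85, 76.9 and 73.95 CPM in DBA/2J and at 112 and 126 CPM in Gpnmb+, 1.61-fold lower in DBA/2J (log2 fold change -0.69, SE 0.089, edgeR adjusted p = 0.0402). Means were 73.9 ± 3.05 CPM (SD, n = 3) in DBA/2J and 119 ± 10.01 CPM (SD, n = 2) in Gpnmb+. Pools of the same genotype were within 1.13 times of each other, and the gap between genotypes was larger than either spread. Leaving out any DBA/2J pool or Gpnmb+ pool 2 ended the call, with the log2 fold change between -0.72 and -0.60. Its paralog Smoc2 was at 46.4, 57.7 and 43.4 CPM against 45.5 and 44.55 CPM, which overlap (log2 fold change 0.13, 95% interval -0.21 to 0.46). Sparc, which binds collagen and aids its assembly, was at 2095, 1778 and 2132 CPM in DBA/2J and 1429 and 1175 CPM in Gpnmb+ (log2 fold change 0.62, SE 0.15, edgeR adjusted p = 0.131), with separate pools, and DESeq2 called it.

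**Figure D4:**
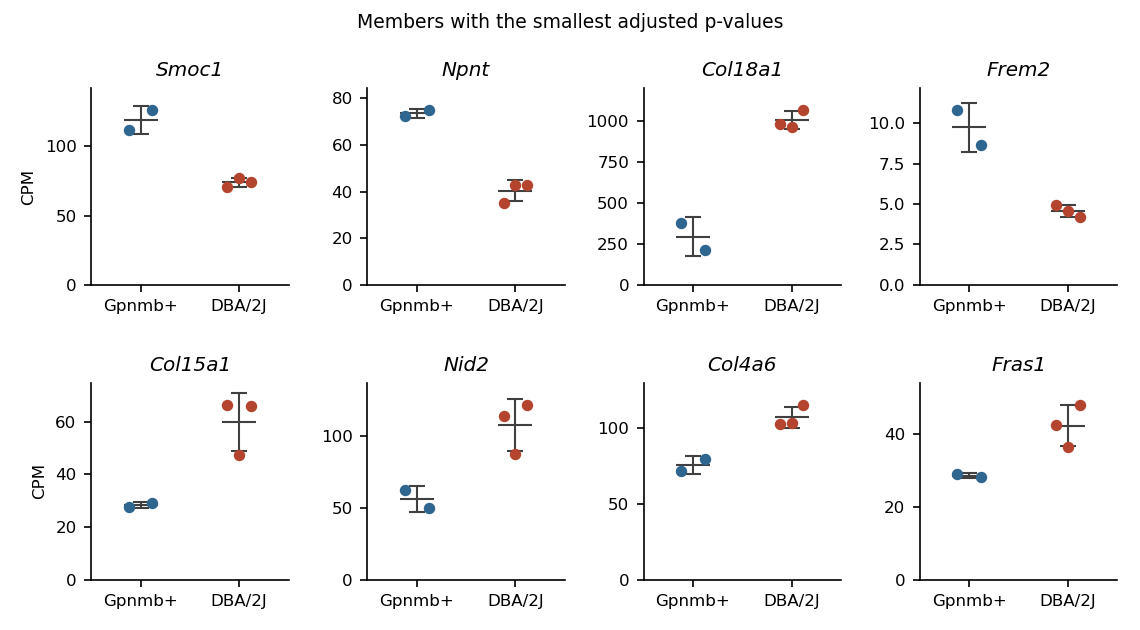
CPM of the 8 members with the smallest edgeR adjusted p-values, with 1 point per pool (blue Gpnmb+, red DBA/2J) and a bar for the mean ± SD of each genotype, on axes that start at 0. Smoc1, Npnt and Frem2 lie lower in DBA/2J, and Col18a1, Col15a1, Nid2, Col4a6 and Fras1 higher.

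Of the remaining members, peroxidasin (Pxdn), the enzyme that forms the sulfilimine crosslink of type IV collagen, was at 74.65, 58.45 and 76.6 CPM in DBA/2J and at 48.2 and 31.8 CPM in Gpnmb+ (log2 fold change 0.81, SE 0.21, edgeR adjusted p = 0.152). DBA/2J pool 2 was the lowest of its genotype, as for Col4a1 and Col4a2. Dystroglycan (Dag1), the laminin receptor of muscle, nerve and epithelium, was at 361, 385 and 352 CPM against 290.2 and 293 CPM (log2 fold change 0.33, SE 0.088, edgeR adjusted p = 0.16). Ntn4, a laminin-related netrin that disrupts laminin networks, was at 87.1, 95.2 and 98.8 CPM against 113 and 138 CPM (log2 fold change -0.42, SE 0.12, edgeR adjusted p = 0.165). Pools did not overlap for any of these 3 genes, and only Pxdn was called by DESeq2. Col4a2, Col15a1, Col18a1, Nid2, Pxdn and Npnt are in gene lists that the study drew from these libraries, so their directions here are not independent evidence of those lists. For Col15a1, Pxdn and Npnt the study also lists protein levels from individual eyes, which were not analysed here.

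**Figure D5:**
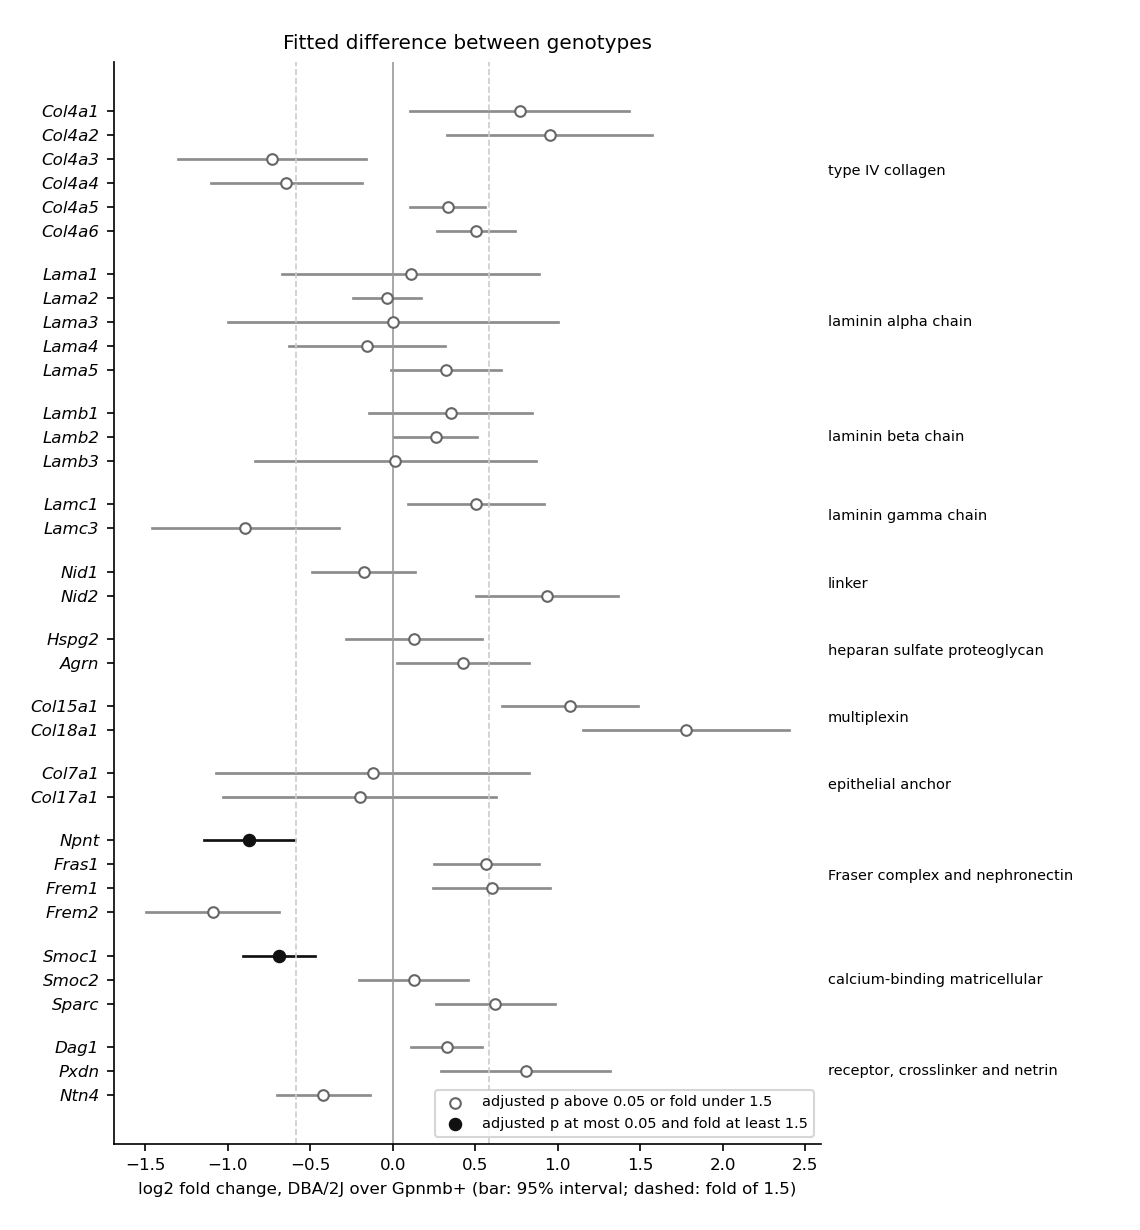
Fitted log2 fold change of DBA/2J over Gpnmb+ for every member (point) with its 95% interval (bar), by role. Filled points are the called genes, Npnt and Smoc1, and dashed lines mark a fold of 1.5. Intervals of Lama3, Col7a1, Col17a1 and Lamb3 reach far to both sides of 0, whereas those of Lama2 and Lamb2 are short.

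Genes that work with the members were read from lists of 106 genes, of which 105 were tested (B4gat1 fell under the filter) and 3 were called by edgeR, 1 higher and 2 lower. DESeq2 called 15. With DBA/2J pool 1, DBA/2J pool 2, DBA/2J pool 3 or Gpnmb+ pool 2 left out, edgeR called 0 of them. Among 16 matrix partners, Vtn, the adhesive glycoprotein vitronectin, was called higher, at 71.5, 76.03 and 71.7 CPM in DBA/2J and 45.9 and 39.6 CPM in Gpnmb+ (log2 fold change 0.77, SE 0.098, edgeR adjusted p = 0.0382). The largest positive value of that list was for Fbln2, a fibulin that binds nidogen and laminin, at 160.2, 91.45 and 111 CPM against 52.5 and 42.7 CPM (log2 fold change 1.34, SE 0.25, edgeR adjusted p = 0.0858). Fbln2 also stands in the study's own lists.

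Among 19 genes of heparan sulfate synthesis, 2 were called, both lower, and they encode the same kind of enzyme. Hs3st3a1 and Hs3st3b1 are heparan sulfate 3-O-sulfotransferases with near-identical catalytic domains, so the split of reads between them is uncertain. Hs3st3a1 was at 13.3, 16.7 and 19.8 CPM in DBA/2J and 43.35 and 53.3 CPM in Gpnmb+ (log2 fold change -1.54, SE 0.18, edgeR adjusted p = 0.0365), and Hs3st3b1 at 14.1, 17.0 and 16.9 CPM against 31.6 and 36.95 CPM (log2 fold change -1.098, SE 0.13, edgeR adjusted p = 0.0364). The other 17 were not called by edgeR. All DBA/2J pools lay above the Gpnmb+ pools for 10 genes of the list and below them for 4, against 17.3 and 17.2% of all genes tested. DESeq2 called 3 of the list, all lower, namely Hs3st3a1, Hs3st3b1 and the N-deacetylase/N-sulfotransferase Ndst3 (adjusted p = 0.0145, named after its values were seen). The largest positive difference was that of the chain polymerase subunit Ext1 (92.9, 71.8 and 84.98 CPM against 69.8 and 61.4 CPM, log2 fold change 0.34, edgeR adjusted p = 0.289). The median log2 fold change of the list was 0.15.

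The list of 20 receptors also held linker proteins inside the cell. None of the 20 was called by edgeR. DESeq2 called 2, Itga8 and the linker Dst (named after its values were seen), and 2 passed an unadjusted p of 0.05 with the fold. Log2 fold changes ran from -1.03 for Itga8 to 0.701 for Itga3, the alpha chain of an epithelial laminin receptor. Itga3 was at 120.5, 63.25 and 61.4 CPM against 55.6 and 44.96 CPM (edgeR adjusted p = 0.36). In that gene, as in Lama3, DBA/2J pool 1 was the highest pool. Of 17 collagen maturation genes, 0 were called by edgeR and 2 by DESeq2, and 2 passed an unadjusted p of 0.05 with the fold. The largest value was for Colgalt2, a collagen galactosyltransferase also in the study's lists, at 48.9, 51.9 and 56.1 CPM against 30.3 and 23.01 CPM (log2 fold change 0.97, SE 0.14, edgeR adjusted p = 0.0513), and the lowest for Mia3, which exports collagen from the endoplasmic reticulum (log2 fold change -0.083). In the 12 tested genes of dystroglycan glycosylation log2 fold changes ran from -0.27 for B3galnt2 to 0.33 for Pomt2, with 0 called by edgeR or DESeq2 and 0 at an unadjusted p of 0.05 with the fold.

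The 21 turnover genes encode proteases of the matrix, their inhibitors and enzymes that act on heparan sulfate. They had 18 log2 fold changes above 0 and a median of 0.37, and edgeR called 0, DESeq2 3 and the unadjusted rule 3. Adamts4, an aggrecanase, was at 10.3, 3.07 and 8.045 CPM in DBA/2J and 2.62 and 1.74 CPM in Gpnmb+ (log2 fold change 1.71, SE 0.53, edgeR adjusted p = 0.209). Timp4, an inhibitor of metalloproteinases, was at 0.4497, 1.68 and 0.896 CPM against 1.79 and 2.80 CPM (log2 fold change -1.19, SE 0.53, edgeR adjusted p = 0.351). Within DBA/2J, pool 2 was the lowest for Adamts4 and the highest for Timp4.

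Markers of cell types that lay down much basement membrane were read beside the members. Over all genes tested, DESeq2 called 4.70%, the unadjusted rule passed 8.67%, and 34.5% had separate pools. Of 9 endothelial markers 0 were called by edgeR or DESeq2, and 0 passed an unadjusted p of 0.05 with the fold. Separate pools were seen for 3, in both directions, near the share of all genes. Summed levels were 707, 557 and 670 CPM in DBA/2J and 604 and 590 CPM in Gpnmb+. DBA/2J pool 2 had the lowest sum of the 5 pools, although Pecam1 and Cdh5 were lowest in Gpnmb+ pool 2. Pecam1 was at 143, 93.8 and 121 CPM against 103 and 86.1 CPM and Cdh5 at 95.2, 62.97 and 89.1 CPM against 71.3 and 51.5 CPM. Of 7 smooth muscle markers edgeR called 0, DESeq2 1 and the unadjusted rule 1, with Acta2 at 418, 365 and 305 CPM against 422 and 333 CPM and Myh11 at 138, 190.1 and 147 CPM against 254 and 175 CPM. The 8 skeletal muscle markers had higher means in DBA/2J, with 0 calls by edgeR, 2 by DESeq2 and 2 by the unadjusted rule, and with summed levels of 190, 291 and 447 CPM against 191 and 120 CPM, Acta1 at 41.1, 67.35 and 94.8 CPM against 36.3 and 23.7 CPM and Ckm at 17.1, 32.5 and 49.8 CPM against 21.1 and 8.81 CPM. The part of these cells in the members' values was not tested.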

How the data were processed

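Poly(A) RNA from 5 pools was sequenced as 100 bp paired-end reads. Per the study's methods, fastp trimming and STAR alignment to GRCm39 (Ensembl 110) preceded counting, and the authors deposited raw counts per gene of reads with a unique alignment. The strand setting is not given in the sources used here, so overlapping genes are uncertain. Names, exonic lengths and positions came from GENCODE M39, which held 56323 of 56941 identifiers. Genes reaching 10 counts in any pool were tested with edgeR 4.0.16 (R 4.3.3, TMM, quasi-likelihood, no covariate), and calls needed a Benjamini-Hochberg adjusted p of at most 0.05 over all genes and a fold of at least 1.5. Intervals are at 95%. DESeq2 1.42.0 and limma 3.58.1 gave alternatives, with other filters, a replicate block and each pool left out. The test was tried on simulated data. CPM used TMM-scaled totals, and CPM per kilobase divided by exonic length.

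The members and lists were chosen with earlier results of these data known, and support nothing by themselves. Named genes were all members, Gpnmb, Xist, Ddx3y, the called genes and both extremes (mean of at least 1 CPM) of each related list, and the first 2 genes of each marker list. The 4 members beside ciliary markers, Mip, Lim2, Bfsp2, Itga8 beside Npnt and Krt14 were chosen after their values were seen. Promoter windows came from RefSeq on GRCm38.p6. Proteomics was not analysed here. Results for some marker genes are not reported here.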

Additional observations from a re-analysis of the deposited data

How the results depend on the processing

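Without the count filter 6 members, 6 related genes and 360 genes in all were called, and with DESeq2's Wald test 12, 15 and 927, against 2, 3 and 157 as reported. Unadjusted p-values gave 14 members and 1710 genes. The cause was not tested. Leaving out each pool in turn gave 0 to 2 members, 0 to 5 related genes and 1 to 217 genes. DESeq2's size factors, limma-voom, edgeR's filterByExpr and no fold minimum kept all of these counts within 1.5 times. The median of the members stayed between 0.14 and 0.28. The number with separate pools was 24 with DESeq2's size factors or plain library totals. It was 25 to 27 with a pool left out, but leaving out a pool can only keep or raise that number, so this range does not measure stability. Smoc1 and Npnt were lost when DBA/2J pool 1, DBA/2J pool 2, DBA/2J pool 3 or Gpnmb+ pool 2 was left out, Npnt also without Gpnmb+ pool 1, and fewer samples were then tested. With 1 Gpnmb+ pool left, that sample is assumed to vary like the DBA/2J pools.

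Signs changed only for members whose fold changes could not be told from 0. In limma-voom Lama3 was at -0.13 and Lamb3 at -0.066. With each pool left out, Lama1 ran from -0.21 to 0.31, Lama2 from -0.091 to 0.027, Lama3 from -0.55 to 0.26, Lama4 from -0.30 to 0.0086, Lamb3 from -0.35 to 0.28, Hspg2 from -0.031 to 0.25, Col7a1 from -0.59 to 0.13, Col17a1 from -0.56 to 0.064 and Smoc2 from -0.0046 to 0.21.

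The pools share only a number between genotypes, with no common source in the labels. Deviations from the genotype means correlated at 0.28 for pools 1 and at 0.25 for pools 2. The deviations of the 2 Gpnmb+ pools mirror each other, so these values are not independent. The cross pairs were at -0.28 (DBA/2J pool 1 with Gpnmb+ pool 2) and -0.25 (DBA/2J pool 2 with Gpnmb+ pool 1). With the replicate number as a block, 4 members were called, among them Col18a1 and Nid2, and 220 genes in all and 4 related genes. Lama1 was then at -0.22, Col7a1 at 0.069 and Col17a1 at 0.037, each opposite in sign to the value reported.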

Other observations

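Among the 34 members, Lama3, Col7a1, Lamb3 and Col17a1, the genes of the hemidesmosome and its anchoring fibrils, had the widest spread among the DBA/2J pools, followed by Lama1, which was the least abundant member in DBA/2J and stood at 2.00 times its lowest pool in the highest. Col4a1 and Col4a2 came next, at 1.93 and 1.87 times. Between the Gpnmb+ pools the widest ratios were those of Col18a1 at 1.79 times, Col4a3 at 1.66 times and Pxdn at 1.52 times. Col18a1 and Pxdn were the lower in Gpnmb+ pool 2, and Col4a3 was the higher there. These are values of pools of several mice, and nothing was tested on them.

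The share of Lamb3 among the beta chains, per kilobase, was 18.4, 14.4 and 8.90% in DBA/2J against 16.7 and 16.4% in Gpnmb+, while that of Lamb2 ran from 58.9 to 65.1% over the 5 pools. Lama3 made up 37.3, 24.7 and 18.4% of the alpha chains in DBA/2J and 27.2 and 30.2% in Gpnmb+.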
